A study of Homo sapiens with 11 samples.

Results

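RNA abundance in HEK293T cells of knockout 1 was compared with that in wild-type cells, and each change was then set beside knockout 2. The comparison rests on 4 of the 11 libraries of the series, namely 2 mRNA libraries of knockout 1 and 2 of wild type, chosen by their labels. The 2 mRNA libraries of knockout 2 served to say which changes it lacks, and the footprint libraries were not used. HEK293T cells derive from human embryonic kidney and express the large T antigen of SV40. The labels write the genotypes as CSAM-KO#1 and CSAM-KO#2, and the wild-type RNA libraries as WT#1 and WT#2. They name no treatment and do not say whether a knockout is a single clone or whether replicates came from separate cultures. The tests below can therefore speak only of the variation among these libraries, and that variation may be technical.

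CSAM is read here as another name of PCIF1, a methyltransferase that associates with RNA polymerase II. This reading could not be checked in these data. When the first transcribed nucleotide of a messenger RNA is adenosine, PCIF1 adds a methyl group to its N6 position, next to the cap. The cap and its neighbouring nucleotides are known to bear on the stability and translation of messenger RNA. None of the identifiers in the files (0) was found in the reference tables, so the level of PCIF1 RNA and the marker genes of the cell line were not examined here. The results below are given by transcript identifier, listed length and line of the deposited table.

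A feature is a transcript row of the table, or a set of rows with identical counts in all 11 libraries counted once. Lines that lie close together often hold overlapping transcripts, so counts of features exceed counts of genes, and blocks of 20 lines are counted beside them. After merging, the wild-type libraries held 63551193 and 51327023 counts, those of knockout 1 held 40346318 and 49580593, and those of knockout 2 held 46118849 and 44638751. The chi-square per feature between replicate libraries was 8.71 in wild type, 3.89 in knockout 1 and 5.45 in knockout 2, a measure that grows with depth. The correlation of their log2 levels was 0.98893, 0.98959 and 0.98849 in the same order. Levels are CPM, counts per 1000000 counts of the TMM-scaled library total, and changes are log2 ratios of knockout 1 to wild type.

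Most RNAs that changed in knockout 1 changed by less than 2-fold, in nearly equal numbers up and down. Of 57719 features tested, 1256 rose (2.18%) and 1202 fell (2.08%), together 4.26% of those tested (edgeR quasi-likelihood test, Benjamini-Hochberg adjusted p under 0.05). The risen features lay in 537 blocks of 20 lines and the fallen ones in 531, of 8304 blocks tested, and 19 blocks held both. The median change was 0.52 among the risen features and -0.60 among the fallen ones, against -0.0025 over all features tested. In all 2458 called features, both knockout 1 libraries lay beyond both wild-type libraries, as they did in 47.3% of all features tested. The count of calls fell to 601 without replicate 1 of knockout 1 and to 754 without replicate 2. The calls that held without any 1 of the 6 RNA libraries were 386, of which 185, in 82 blocks, fell and the others, in 88 blocks, rose. Their median size was 1.10 on the log2 scale.

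Among called features, the larger the change, the lower was the median wild-type level of the features in its size class. A small change at a low level passes the test less readily than at a high one, so this order depends on the precision of the test. Of the called features, 1046 changed by less than 0.5 on the log2 scale, and their median wild-type level was 22.1 CPM. A change of 0.5 to 1 was found in 843 features, and one of 1 to 2 in 330. Changes of more than 2 on the log2 scale were lopsided. They comprised 178 falls in 77 blocks, with a median level of 0.684 CPM in wild type and 0.0497 CPM in knockout 1. The 61 rises, in 28 blocks, went from a median of 0.115 CPM to 0.625 CPM. At such levels a feature often passes the count filter through the genotype where it is high. The wild-type libraries were deeper than those of knockout 1, which lets falls pass at a lower CPM than rises. How far this made the counts unequal was not tested. The share of features called was 2.44% where the mean level was under 1 CPM and 7.29% at 20 to 100 CPM, and the median size of a call was 2.29 and 0.38 on the log2 scale in these classes.

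Some changes of knockout 1, both rises and falls, were lacking in knockout 2. A change of knockout 1 was taken to be lacking in knockout 2 where knockout 2 was not called against wild type in either direction and a direct test of knockout 1 against knockout 2 was called in the direction of the change. By this rule 551 features in 242 blocks were lacking, 22.4% of the calls of knockout 1 and 0.955% of all features tested. They comprised 329 rises (26.2% of the rises) with a median of 0.65 in knockout 1 and -0.035 in knockout 2. The other 222 were falls (18.5% of the falls) with a median of -0.92 in knockout 1 and 0.050 in knockout 2. The rule itself selects features in which knockout 2 is near wild type, so these medians of knockout 2 are not a separate result. A further 104 features were called in opposite directions in the knockouts, 64 of them higher in knockout 1. The change was called in both knockouts in the same direction for 1106 features, of which 82 also differed in size by the direct test. The remaining 697 could not be placed, since knockout 2 passed neither test. For comparison, 12.3% of all features tested were called in knockout 2 against wild type, with 5.9% higher and 6.4% lower. The direct test called 6.54%, with 3.53% higher in knockout 1 and 3.01% lower. All of these tests share libraries, and a chance deviation of knockout 1 enters both tests that place a feature among the lacking ones. The count of lacking features was 218 without replicate 1 of knockout 1 and 247 without replicate 2, and 104 features in 52 blocks were lacking without any 1 of the 6 libraries. The counts without replicate 1 and without replicate 2 of knockout 1 were 40 and 43 for opposite features, 252 and 320 for those called in both, and 91 and 144 for those not placed, while leaving out replicate 1 or 2 of knockout 2 gave 1101 and 1239 not placed.

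**Figure D1:**
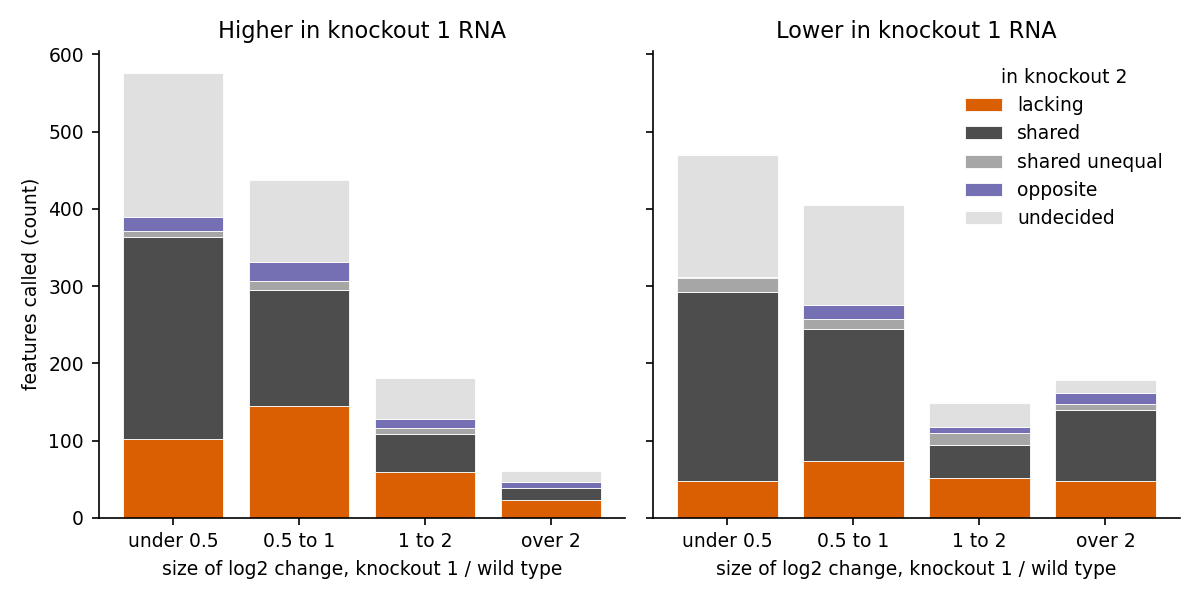
Number of features called in knockout 1 RNA (vertical axis) by size of the log2 change (horizontal axis), risen features on the left and fallen ones on the right, with colours for what knockout 2 showed. The 551 lacking features (orange) took 14.3% of the changes under 0.5 and 33.6% of those of 1 to 2.

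The share of changes lacking in knockout 2 was lowest among the smallest changes. It was 14.3% among changes under 0.5, 26.0% among those of 0.5 to 1, 33.6% among those of 1 to 2, and 29.7% among those over 2. A small difference between the knockouts passes the direct test less readily than a large one, so these shares depend on the precision of the test. Among rises of 1 to 2, 59 were lacking and 49 were called in both knockouts without a difference by the direct test. Among falls of more than 2, those counts were 48 and 91.

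The highest rise lacking in knockout 2, among features with at least 5 CPM in wild type or knockout 1, was that of uc003ngz.5, on line 57035, with a listed length of 117. Its RNA stood at 2.32 and 3.77 CPM in the wild-type libraries, 22.1 and 15.4 CPM in those of knockout 1, and 4.32 and 2.88 CPM in those of knockout 2. Both knockout 1 libraries were above the other 4, and knockout 2 overlapped wild type. The log2 change was 2.64 ± 0.30 (SE) in knockout 1 (edgeR adjusted p = 0.00668) and 0.26 ± 0.34 in knockout 2 (adjusted p = 0.699), and the direct test gave an edgeR adjusted p of 0.00641. The next 3 rises in rank lay on lines 56996, 57046 and 57220 and had the same listed length of 117. On line 57220, the most abundant of them, RNA went from 144 and 124 CPM in wild type to 416 and 306 CPM in knockout 1, with 149 and 109 CPM in knockout 2. On line 57046 it went from 6.85 and 5.98 CPM to 26.7 and 17.6 CPM, with 7.02 and 6.21 CPM in knockout 2. The calls on lines 56996 and 57220 were lost without replicate 1 and without replicate 2 of wild type, with log2 changes of 1.83 and 1.54 in the first case and 2.26 and 1.33 in the second. Both calls were also lost with no count filter, and without replicate 1 or 2 of knockout 2 the feature on line 56996 could not be placed.

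These 4 features belong to a neighbourhood in which a few listed lengths recur, described here after its values were seen. Within 300 lines of uc003ngz.5, 19 tested features had a listed length of 117, 10 had 94, 10 had 121 and 7 had 127. The log2 change was positive in all 19 of length 117, in 9 of the 10 of length 94, in all 10 of length 121 and in all 7 of length 127. Their median changes were 1.40, 1.34, 1.40 and 1.58 in knockout 1, and -0.061, 0.18, -0.0089 and 0.31 in knockout 2. Over the same lines, the 168 other features tested had a median change of 0.040, and 1 of them rose. Few of the recurring lengths passed the test, with 8 calls for length 117, 2 for length 94 and none (0) for the other lengths, all 10 of them lacking in knockout 2. The summed level of the 19 features of length 117 was 1963 and 1865 CPM in wild type, 5622 and 3999 CPM in knockout 1, and 2178 and 1535 CPM in knockout 2. Replicate 1 of knockout 1 was above replicate 2 in all 19, so the libraries of knockout 1 also differed from each other there. The summed level was higher in replicate 1 than in replicate 2 of knockout 2 and of wild type as well. Whether replicates of the same number share an effect there was not tested. DESeq2 called 18 of the 19, and edgeR with no count filter called 5. With a replicate block edgeR called 17, as it did with only the wild-type and knockout 1 libraries. edgeR called 4 without replicate 1 of wild type, 4 without its replicate 2, 17 without replicate 1 of knockout 1 and 19 without its replicate 2. With all libraries, no feature (0) of this length was called in knockout 2. Among tested features elsewhere, 175 had a listed length of 117, and 2 of these rose.

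The remaining rises named by rank were smaller and closer between replicates. On line 112424 (listed length 474), RNA stood at 2.46 and 3.10 CPM in wild type, 6.86 and 7.18 CPM in knockout 1, and 2.77 and 2.60 CPM in knockout 2. On line 19097 (listed length 484) it stood at 4.70 and 4.20 CPM in wild type, 11.2 and 10.2 CPM in knockout 1, and 3.49 and 3.20 CPM in knockout 2. In both features the knockout 1 libraries lay apart from all others, which the naming rule required with respect to wild type. The log2 changes were 1.34 ± 0.16 and 1.26 ± 0.13 (SE; edgeR adjusted p = 9.00e-07 and 1.49e-07). Without replicate 2 of wild type, knockout 2 was called lower on line 19097 (edgeR adjusted p = 0.0435), so that the feature then counted as opposite.

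The deepest loss lacking in knockout 2, under the same limit of 5 CPM, was that of uc065bgk.1, on line 89122, with a listed length of 895. It had 397 and 434 counts in wild type, against 1 and 0 in knockout 1, while knockout 2 had 351 and 318. These are 6.07 and 8.31 CPM in wild type, 0.0249 and 0 CPM in knockout 1, and 7.90 and 7.26 CPM in knockout 2. The level in wild type was 639 times that in knockout 1, with a 95% exact conditional interval of 114 to 25251 that covers counting error only (edgeR adjusted p = 2.14e-15). Knockout 2 overlapped wild type, with a log2 change of 0.082 ± 0.15 (SE; edgeR adjusted p = 0.785). The second loss in rank, on line 89112 (listed length 180), had 700 and 701 counts in wild type, against 3 and 0 in knockout 1, while knockout 2 had 612 and 728. Without replicate 2 of wild type, knockout 2 was called higher there (edgeR adjusted p = 0.0190).

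**Figure D2:**
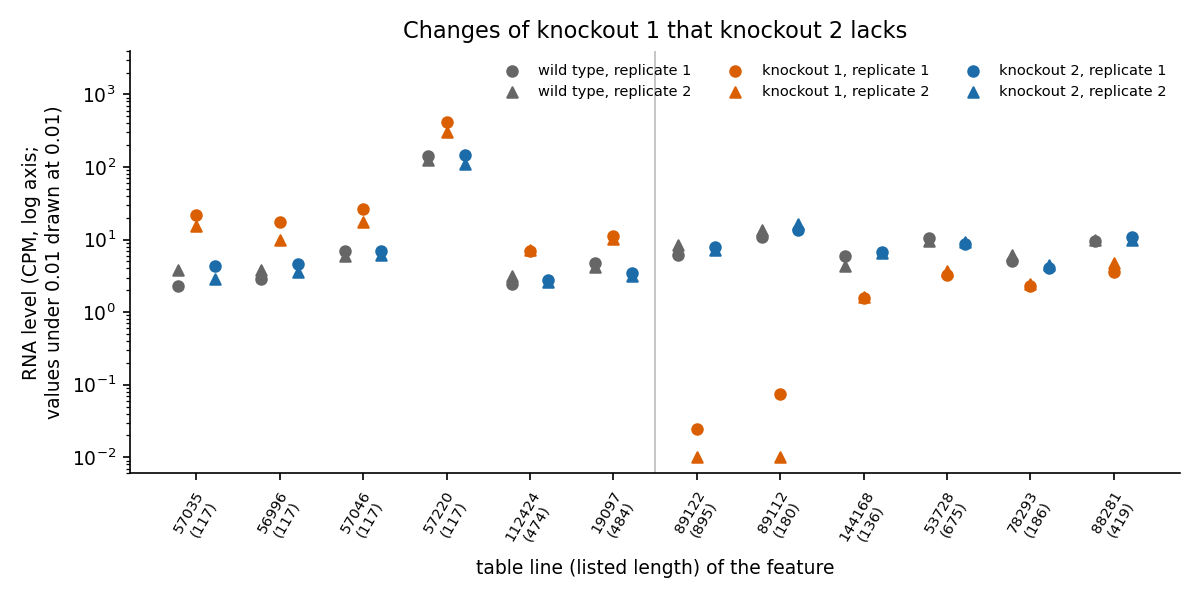
RNA level in CPM (vertical log axis, values under 0.01 drawn at 0.01) of the 6 highest rises (left of the grey line) and 6 deepest falls (right) lacking in knockout 2, each named by its table line and listed length. Ranks are among features with at least 5 CPM in wild type or knockout 1. Circles and triangles are replicates 1 and 2. On every line both orange points of knockout 1 lie apart from the grey wild-type points, because the naming rule required it.

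A short stretch around uc065bgk.1 held both a loss and a rise. From line 89104 to line 89123, 7 consecutive tested features, 5 of them with a listed length of 180, stood at 2.86 to 21.3 CPM in wild type, at most 0.124 CPM in knockout 1 and 3.51 to 25.2 CPM in knockout 2. None held more than 5 counts in replicate 1 of knockout 1, or more than 1 count in replicate 2. The next 7 features, from line 89125 to line 89134, were not called, with log2 changes of 0.12 to 0.68. Then came the longest run of neighbouring risen features in knockout 1, with 19 in a row from line 89135 to line 89166 and listed lengths of 56 to 314. Their log2 changes lay between 0.70 and 0.88 in knockout 1, and between 0.10 and 0.26 in knockout 2. Their median level was 19.7 and 21.2 CPM in wild type, 37.5 and 34.4 CPM in knockout 1, and 21.5 and 23.8 CPM in knockout 2. All 19 rises and all 7 losses were lacking in knockout 2, and each was also called in knockout 1 by DESeq2 and without any 1 of the 6 libraries. Features of a run share reads where their transcripts overlap, and are not separate evidence.

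**Figure D3:**
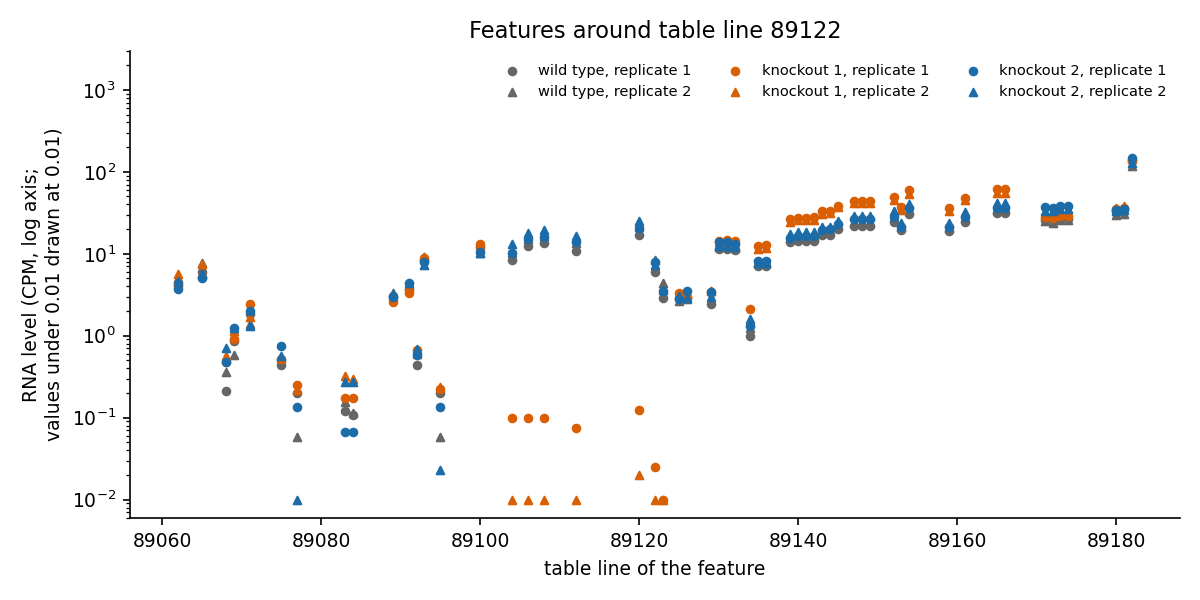
RNA level in CPM (vertical log axis, values under 0.01 drawn at 0.01) of every tested feature within 60 lines of line 89122, by table line (horizontal axis), with circles and triangles for replicates 1 and 2. Knockout 1 (orange) lies at or under 0.124 CPM from line 89104 to line 89123 and above the other genotypes from line 89135 to line 89166.

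The other falls lacking in knockout 2 were partial. On line 144168 (listed length 136) RNA stood at 5.96 and 4.39 CPM in wild type, 1.59 and 1.64 CPM in knockout 1, and 6.75 and 6.44 CPM in knockout 2, a log2 change of -1.69 ± 0.18 (SE) in knockout 1 (edgeR adjusted p = 1.46e-07). Without replicate 1 of wild type, knockout 2 was called higher there (edgeR adjusted p = 0.0356). On line 53728 (listed length 675) it stood at 10.4 and 9.69 CPM, 3.28 and 3.65 CPM, and 8.66 and 9.41 CPM in the same order, a log2 change of -1.53 ± 0.14 (SE; edgeR adjusted p = 3.03e-09). The levels on line 88281 (listed length 419) were 9.50 and 9.94 CPM in wild type, 3.60 and 4.69 CPM in knockout 1, and 10.8 and 9.84 CPM in knockout 2. In these features knockout 1 lay below all other libraries. On line 78293 (listed length 186) knockout 2, at 4.0 and 4.48 CPM, lay between wild type, at 5.09 and 6.05 CPM, and knockout 1, at 2.29 and 2.41 CPM. The log2 change there was -1.24 ± 0.17 (SE) in knockout 1 (edgeR adjusted p = 9.53e-06) and -0.39 ± 0.15 in knockout 2 (adjusted p = 0.0970).

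Some of the features with the largest changes moved in opposite directions in the knockouts. On line 89458 (listed length 309), RNA was close to absent in wild type, with 5 and 9 counts, and in knockout 2, with 1 and 0 counts, but reached 10.6 and 11.6 CPM in knockout 1. Its rise had a log2 change of 6.51 ± 0.26 (SE; edgeR adjusted p = 8.56e-17), while the fall called in knockout 2 (edgeR adjusted p = 0.0349) rests on those few counts. Without replicate 1 or 2 of knockout 1 this feature did not pass the count filter. On line 81342 (listed length 337), RNA was 2.31 and 4.04 CPM in wild type, rose to 9.89 and 8.94 CPM in knockout 1 and fell to 0.315 and 0.388 CPM in knockout 2. The reverse order held on line 88831 (listed length 2716), with 32.6 and 25.1 CPM in wild type, 8.43 and 7.90 CPM in knockout 1, and 67.3 and 61.3 CPM in knockout 2. On line 89607 (listed length 142) the levels were 4.44 and 5.71 CPM, 0.447 and 0.419 CPM, and 8.17 and 8.31 CPM in that order. The direct test of the knockouts gave an edgeR adjusted p of 1.67e-11 on line 81342, 3.97e-16 on line 88831 and 7.13e-15 on line 89607.

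The changes called in both knockouts also included deep losses and rises. Among features with at least 5 CPM in wild type or knockout 1, the deepest loss called in both was that of uc004dqf.4 (line 86906, listed length 72), with 380 and 248 counts in wild type, against 0 and 1 in knockout 1, while knockout 2 had 0 and 0. Its level in wild type was 483 times that in knockout 1 (95% exact conditional interval 86.3 to 19090, counting error only; edgeR adjusted p = 6.49e-14), and it did not pass the count filter without replicate 1 or 2 of wild type. A partial loss was found on line 77674 (listed length 543), from 7.88 and 4.73 CPM in wild type to 0.423 and 0.499 CPM in knockout 1 and 0.337 and 0.206 CPM in knockout 2. Under the same limit, the highest rise called in both was that of uc001rog.3 (line 111155, listed length 807), from 5.75 and 6.49 CPM to 18.9 and 18.9 CPM in knockout 1 and 16.5 and 18.1 CPM in knockout 2. Its log2 change was 1.63 ± 0.11 (SE; edgeR adjusted p = 5.75e-12) in knockout 1 and 1.50 ± 0.11 (edgeR adjusted p = 3.51e-11) in knockout 2. On line 67394 (listed length 196), the level rose from 2.62 and 2.57 CPM to 7.48 and 6.88 CPM in knockout 1 and 5.76 and 4.89 CPM in knockout 2, and the direct test did not pass (edgeR adjusted p = 0.0738). Both comparisons use the wild-type libraries, so their like values are not independent.

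Few RNAs all but vanished in knockout 1, and in part of these knockout 2 kept the RNA. A feature was taken as near zero when its mean was 1 CPM or more in wild type and the libraries of knockout 1 held no more than 3 counts together. This held for 15 features in 6 blocks, of which 4 features in 3 blocks were lacking in knockout 2 and 11 features in 3 blocks were called in both. With up to 10 counts allowed, it held for 19 features, 8 of them lacking, in 3 blocks. The reverse, with the genotypes exchanged, was found in no feature (0). Of the 15, those on lines 89112, 89122, 89123 and 174794 kept their level in knockout 2. Lines 89112, 89122 and 89123 belong to the stretch from line 89104 to line 89123 described above, and are not separate evidence. The feature on line 174794 (listed length 268) had 67 and 59 counts in wild type, against 0 and 3 in knockout 1, while knockout 2 had 48 and 62. The other 11 had at most 1 count over both libraries of knockout 2. They lay on lines 11209 to 11215, 86906 to 86914 and 171945 to 171947. Lines 86906 and 86914 had identical RNA counts, as did lines 86907 and 86912. Where knockout 1 had 0 counts, the fold was taken against the 3 counts over both libraries that 0 allows. On line 11215, with 91 and 75 counts in wild type, the level in wild type was at least 42.5-fold higher, and on line 89123, with 187 and 228 counts, at least 106-fold higher.

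RNAs with a long listed length fell more often than others in knockout 1, and those with a short one rose more often than they fell. The unit of the listed length is not stated. Among features with a listed length over 1600, 114 of 1303 fell (8.75%, in 61 blocks) and 17 rose (1.30%, in 12 blocks). Over all features tested, 2.08% fell and 2.18% rose. At lengths over 800 and up to 1600, 4.59% fell and 2.19% rose. Between 400 and 800 the shares were 3.16% and 2.31%, between 200 and 400 they were 1.76% and 2.65%, and between 100 and 200 they were 1.07% and 2.25%. Up to 100, 76 of 10922 fell (0.696%, in 50 blocks) and 162 rose (1.48%, in 113 blocks). The share called also differed by level, as given above, and the length classes were not matched for level. The median log2 change passed from 0.043 in the class up to 100 through 0.015, 0.011, -0.024 and -0.063 to -0.13 in the class over 1600, in order of length, against -0.0025 over all features. Knockout 2 had medians of 0.064, 0.040, 0.038, -0.038, -0.13 and -0.24 in the same order. Of the 114 falls in the class over 1600, 8 were lacking in knockout 2, against 222 of 1202 falls of any length. The share of falls over 1600 was 1.46% without replicate 1 of knockout 1 and 2.93% without replicate 2. Without replicate 1 the order of rises and falls turned in some classes, with 0.258% rising and 0.295% falling up to 100, and 0.721% rising and 0.518% falling between 800 and 1600.

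By library, the class over 1600 kept the genotypes apart. Relative to the wild-type mean, its median stood at 0.027 and -0.027 in the wild-type libraries, -0.14 and -0.091 in knockout 1, and -0.25 and -0.20 in knockout 2. Both knockout 1 libraries lay below wild type and above knockout 2. In the class up to 100 the medians were -0.016 and 0.016 for wild type, 0.045 and 0.017 for knockout 1, and 0.055 and 0.031 for knockout 2. There the lower knockout 1 library lay next to the higher wild-type library, and the knockouts overlapped. With 1 feature per block, of which 3.31% rose and 3.26% fell, the class over 1600 held 5.74% and 5.43% of the counts for wild type, 4.95% and 5.17% for knockout 1, and 4.44% and 4.55% for knockout 2. Extremes of a class were taken among called features with at least 5 CPM in wild type or knockout 1, 1 per block. At the extremes of the class over 1600 were the fall on line 88831 given above, which was a rise in knockout 2, and a rise on line 146408 (listed length 2050). The latter went from 43.1 and 38.8 CPM in wild type to 59.5 and 64.5 CPM in knockout 1 and 50.6 and 49.6 CPM in knockout 2, a log2 change of 0.60 ± 0.09 (SE; edgeR adjusted p = 3.65e-05) in knockout 1. Among the shortest, under the same limits, the highest rise lay on line 76203 (listed length 92). It went from 13.7 and 15.2 CPM to 33.4 and 25.1 CPM in knockout 1 and 44.7 and 35.5 CPM in knockout 2. It was not called without replicate 1 of wild type (log2 change 0.94, against 1.02 with it).

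**Figure D4:**
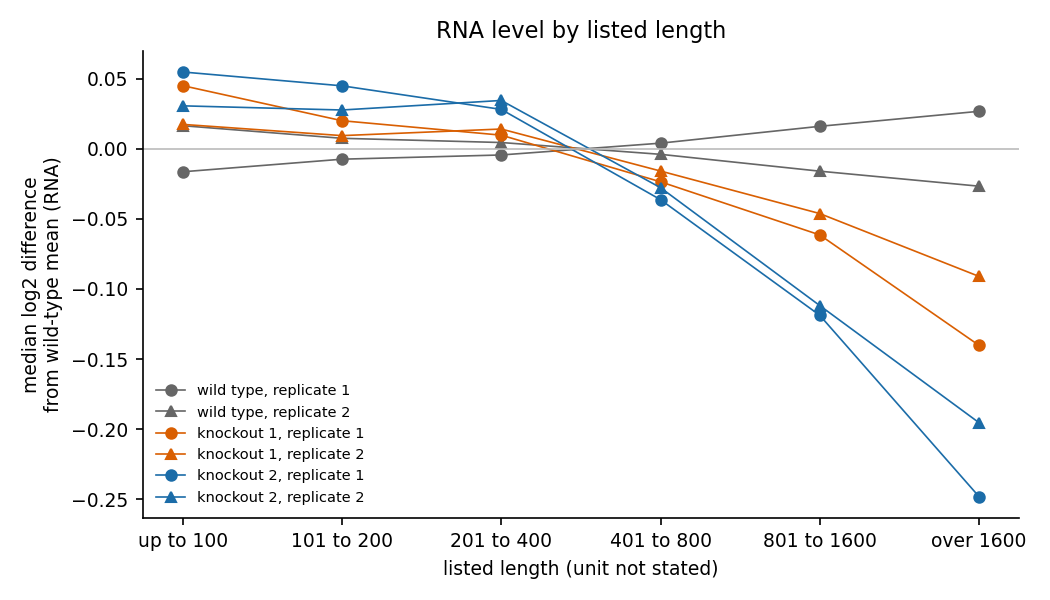
Median log2 difference from the wild-type mean (vertical axis) of all features tested, by class of listed length (horizontal axis), for each RNA library. In the class over 1600 the knockout 1 libraries stand at -0.14 and -0.091, between wild type and knockout 2.

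The highest of the running medians along the table lay in a stretch where that of knockout 2 was lower. The median change over windows of 40 blocks (800 lines, 1 feature per block) had a central 95% range of -0.13 to 0.16 over 9081 overlapping windows. The highest window, from line 172101 to line 172900, had a median of 0.34 in knockout 1 and 0.063 in knockout 2. In it, 37 of 40 blocks were higher in knockout 1, and 67 of 250 tested features rose while 2 fell. Over all features tested, 2.18% rose and 2.08% fell. By library, the median of this window was 0.0066 and -0.0066 in wild type, values that mirror each other because each is taken from their mean. Knockout 1 stood at 0.33 and 0.34 there, while the libraries of knockout 2 gave 0.078 and 0.053. This window was chosen as the highest of 9081 in knockout 1. Its distance from wild type is therefore a description and not a test. Of the 67 rises, 14 were lacking in knockout 2, 24 were called in both knockouts without a difference by the direct test, and 29 could not be placed. Among all rises of knockout 1, 26.2% were lacking, a larger share than in this window. The changes in it were small, with a quartile range of 0.24 to 0.41. The window had a median of 0.31 without replicate 2 of wild type and 0.37 without replicate 1 of knockout 1.

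The other extreme windows differed less from knockout 2. The second highest, from line 177421 to line 178220, had a median of 0.24 in knockout 1 and 0.15 in knockout 2, and the third, from line 155741 to line 156540, had 0.20 and 0.27. The third stood at 0.12 without replicate 1 of wild type. The lowest window, from line 170021 to line 170820, had a median of -0.24 in knockout 1 and -0.37 in knockout 2, with 24 blocks tested. The next were those from line 165761 to line 166560, with -0.21 and -0.30, and from line 1501 to line 2300, with -0.20 and -0.16. The last of these stood at -0.12 without replicate 2 of wild type and at -0.13 without replicate 1 of knockout 1. In segments of 2000 lines, a size chosen after the values were seen, lacking features were most numerous from line 88001 to line 90000. That segment held 46 among 637 features tested, against 0.955% over all features. These include the 7 losses and 19 rises from line 89104 to line 89166 described above, which are not separate evidence. Lines 130001 to 132000 followed with 35 lacking features, and held 43 rises and 12 falls among 710 features tested. The segment from line 172001 to line 174000 held 95 rises and 2 falls among 629 features tested, against 2.18% and 2.08% over all features. Of these changes 23 were lacking, a share close to the 22.4% over all calls. The lowest window of knockout 2, from line 85521 to line 86320, had a median of -0.96 there and -0.0092 in knockout 1.

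**Figure D5:**
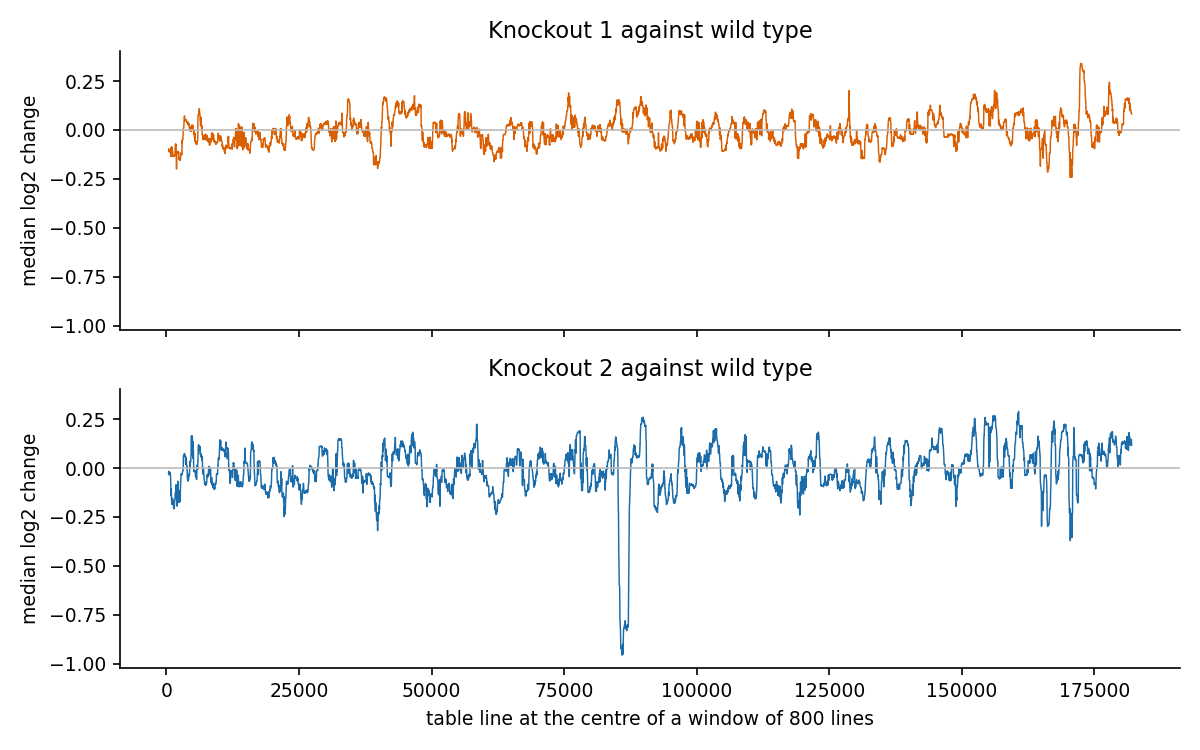
Median log2 change over windows of 800 lines, 1 feature per 20 lines (vertical axis), by table line at the window's centre (horizontal axis), for knockout 1 (top) and knockout 2 (bottom). The highest window of knockout 1, at 0.34, spans lines 172101 to 172900, where knockout 2 has 0.063.

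Shorter runs of neighbouring features called in one direction were common, and neighbouring transcripts often overlap. There were 598 runs of risen features, 323 of them of a single feature, and 597 runs of fallen ones, 325 of them single. Runs of at least 5 features numbered 47 among the rises and 39 among the falls, with 343 and 276 features. After the run from line 89135 to line 89166, the longest runs of rises lay on lines 113304 to 113334, with 18 features and a median of 0.41 in knockout 1 and 0.37 in knockout 2, and on lines 43133 to 43150, with 15 features and medians of 0.39 and 0.50. The longest runs of falls lay on lines 174876 to 174894, with 17 features and medians of -0.58 and -0.38, and on lines 68338 to 68354, with 11 features and medians of -0.82 and -0.45. They were followed by lines 155440 to 155457, with 10 features and medians of -3.13 and -3.44. None of the features of these 5 runs (0) was lacking in knockout 2, and the direct test was called for none (0). Without replicate 1 of knockout 1, the run of 18 kept 1 call, those of 15 and 17 features kept none (0), that of 11 kept 8 and that of 10 kept 10. Without replicate 1 of wild type, the runs of 18, 15 and 17 kept 3, 7 and 6 calls, and without replicate 2 of knockout 1 they kept none (0). The run of 15 kept 8 calls without replicate 2 of wild type.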

How the data were processed

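The RNA libraries came from a stranded TruSeq protocol, per the labels. For software, CASAVA 1.8, Bowtie2 2.1.0, TopHat2 2.0.9 and build hg38 appear in the submitters' processing notes, with no role or order. The authors deposited raw counts for each transcript, 182398 rows a file. The counting program, its strand setting and its handling of shared reads are not given in the sources used here. Rows whose counts were identical in all 11 files were merged, keeping the line and length of 1 row, which left 66016 features. Of those tested, 1267 still shared all RNA counts with another feature.

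The 6 RNA libraries were fitted together in edgeR 4.0.16 (R 4.3.3; TMM, robust quasi-likelihood test, two-sided), on features reaching 10 counts in 2 or more libraries. Benjamini-Hochberg adjustment covered all features tested, with a threshold of 0.05. An SE is the size of the log2 change over the square root of F. Library medians used log2(CPM + 0.5). DESeq2 1.42.0, other filters and size factors, unmerged rows, a replicate block, 1 feature per 20 lines, other window sizes and leaving out each library were tried.

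Named features were called, reached 5 CPM in wild type or knockout 1, and had libraries that did not overlap. They were the highest and lowest by log2 change, with 1 per block: 6 each lacking in knockout 2, 3 each shared, 2 each opposite and 1 each per length class. Members and lists were chosen with earlier results of these data known. Recurring lengths, the features around line 89122 and the counts held without any 1 library were chosen after seeing these values.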

Additional observations from a re-analysis of the deposited data

Results flagged for a closer look

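Both comparisons with wild type and the direct test of the knockouts together placed 551 features as changed in knockout 1 and lacking in knockout 2. The comparisons with wild type called 104 features in opposite directions. Among the named features, the log2 difference of knockout 1 minus knockout 2 was 2.38, 1.72, 1.74 and 1.48 on lines 57035, 56996, 57046 and 57220. It was 1.39 on line 112424, 1.68 on line 19097, -2.03 on line 144168, -1.38 on line 53728, -0.85 on line 78293 and -1.31 on line 88281. It was 4.73 on line 81342, -4.25 on line 89607 and -2.98 on line 88831. Of the features called in both knockouts in the same direction, that on line 76203 differed by -0.46 and that on line 146408 by 0.31. Where 1 knockout held few counts, the difference is given in CPM, with -7.57 on line 89122, -15.2 on line 89112 and 11.1 on line 89458.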

How the results depend on the processing

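Each genotype had 2 RNA libraries, which limits the precision of every test. DESeq2 called 1471 features (795 higher, 676 lower), with 136 falls lacking in knockout 2, 570 features called in both, 462 not placed and 50 opposite. By listed length, in ascending order, its moved shares were 0.769% higher up to 100, 0.603% lower over 100, 1.72% higher and 0.969% lower over 200, 1.20% and 1.70% over 400, and 1.44% and 2.28% over 800. A mean count of at least 50 gave 2.25% higher up to 100. Without a count filter the second highest window had 0.19. With 1 feature per 20 lines, the 4 shortest classes had medians of 0.076, 0.054, 0.033 and -0.011. Windows of 20 blocks reached 0.37 and -0.37, and windows of 80 blocks reached 0.29. At 0.5 CPM or more, 44 features were near zero.

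The replicate block gave 3532 calls, with 2.35% higher up to 100, 3.44% higher and 1.62% lower over 100, and 2.07% higher over 1600. Over all features, the deviations of same-numbered libraries were nearly uncorrelated between genotypes, at -0.058, 0.076 and 0.039. These values cannot say whether some features share an effect of the replicate number.

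Leaving out each library gave 601 to 2836 calls, 324 to 1552 higher and 277 to 1284 lower. Those lacking in knockout 2 were 218 to 593, of them 139 to 348 higher and 79 to 245 lower. Features called in both were 252 to 1592, those not placed 91 to 1239 and opposite ones 40 to 83. In order of length, shares higher were 0.258% to 2.60%, 0.695% to 2.86%, 0.609% to 3.19%, 0.511% to 2.51%, 0.591% to 2.21% and 0.616% to 1.55%. Shares lower were 0.295% to 0.793%, 0.309% to 1.33%, 0.411% to 1.8%, 0.834% to 3.28%, 0.518% to 4.72% and 1.46% to 10.1%. Medians were 0.019 to 0.077, 0.0084 to 0.029, 0.0082 to 0.019, -0.029 to -0.013, -0.081 to -0.035 and -0.15 to -0.093. The high windows had 0.31 to 0.37, 0.23 to 0.29 and 0.12 to 0.22, and the low ones -0.26 to -0.19, -0.25 to -0.18 and -0.20 to -0.12. The cause of these moves was not tested. No named feature (0) reversed.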
